A study of Mus musculus with 36 samples.

Results

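The genes examined here encode the proteins with which the liver builds, exports and remodels plasma lipoproteins. They comprise Apob, Mttp, Apoa5, Apoc3, Apoa4, Apoa1, Apoa2, Apoe and Lipc, chosen by gene symbol, and all 9 symbols were found among the 24421 genes of the count files. Expression was measured by RNA sequencing of liver from 36 male C57BL/6J mice, with 1 library per mouse. Every mouse had first received CDAHFD, a high-fat diet lacking choline in which amino acids replace protein, for 12 weeks, so that no group represents an untreated liver. In one experiment the mice were then moved to a high-fat diet with choline (HFD) for 2 weeks and injected once a week with Fc at 4.3 mg/kg (n = 10) or Fc(mML1)B3 at 5 mg/kg (n = 10). In the other they were moved to standard diet for 10 days and injected on days 1, 4 and 7 with Fc at 4.3 mg/kg (n = 9) or Fc(mML1)B3 at 5 mg/kg (n = 7). The study's methods give an age of 7 weeks at purchase and 1 week of acclimation. Fc is the constant part of a human antibody and served as the control protein. Fc(mML1)B3 is the same Fc carrying a macrocyclic peptide that binds and activates Met, the receptor for hepatocyte growth factor, grafted into a surface loop. The diet experiments also differed in dosing schedule and in the numbering of their libraries, so the effect of diet cannot be told apart from these.

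The liver secretes triglyceride in very low density lipoprotein (VLDL). Microsomal triglyceride transfer protein, encoded by Mttp, loads lipid onto apolipoprotein B as it is made, and the particle then needs a phosphatidylcholine coat to leave the cell. Choline is a precursor of phosphatidylcholine, and diets without it are known to slow VLDL export and to fill hepatocytes with fat. The other apolipoproteins govern what happens to the particle in plasma, or form the separate high density lipoprotein (HDL).

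Total counts ranged from 14949035 to 28466853 per library, and the 9 genes together held 4.09% to 5.44% of them. No pair of libraries within a group agreed within sampling noise (lowest chi-square per degree of freedom 6.31 over 147 pairs). The summed level of 7 hepatocyte markers was 81349 to 162990 CPM (counts scaled to a common library size) per library. Apoa4, Apoa1 and Apob are also transcribed in the gut. The summed level of 6 gut markers was 57.6 to 167 CPM per library, most of it Fabp2 (54.4 to 164 CPM), while Cdx2 was at 0 in every library, Sis at 0 to 0.261 CPM and the other 3 at no more than 4.40 CPM. In tissue RNA, fewer cells of a type and less RNA per cell cannot be told apart.

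In the mouse genome (mm10), Apoa1 (chr9:46228630-46230469, plus strand), Apoc3 (chr9:46233050-46235636, minus strand), Apoa4 (chr9:46240844-46243458, plus strand) and Apoa5 (chr9:46268608-46271919, plus strand) lie within 43.3 kb of one another. Lipc (chr9:70798128-70934808, minus strand) is on the same chromosome but outside that cluster. Apob (chr12:7977677-8016839, plus strand), Mttp (chr3:138089855-138143388, minus strand), Apoe (chr7:19696244-19699188, minus strand) and Apoa2 (chr1:171221564-171226379, plus strand) lie elsewhere. The exons of Apoa2 overlap in a short stretch with those of Tomm40l on the opposite strand, and counting used no strand option, so reads from that stretch cannot be assigned to one gene.

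Promoter sequence was available from RefSeq (GRCm38.p6) for 8 of the 9 genes, in 13 entries, with none for Apoc3. The 250 bases before the start are shown for Apoa4, Apob and Lipc, which had the largest differences between the diet experiments in Fc mice, and for Apoa5, the gene that differed between Fc(mML1)B3 and Fc in both experiments. Capitals mark matches to 6 motifs searched on both strands, namely the nuclear receptor motif AGGTCA, the HNF4 motif CAAAGTCCA, the TATA box TATAAA, the E-box CACGTG, the cyclic AMP response element TGACGTCA and the forkhead motif TGTTTAC.
Apoa4 (chr9:46240594-46240843, plus strand): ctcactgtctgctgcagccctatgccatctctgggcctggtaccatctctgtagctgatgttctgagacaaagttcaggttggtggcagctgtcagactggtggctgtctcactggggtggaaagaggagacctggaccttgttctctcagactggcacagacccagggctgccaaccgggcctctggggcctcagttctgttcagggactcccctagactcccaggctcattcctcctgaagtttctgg
Apoa5 (chr9:46268358-46268607, plus strand): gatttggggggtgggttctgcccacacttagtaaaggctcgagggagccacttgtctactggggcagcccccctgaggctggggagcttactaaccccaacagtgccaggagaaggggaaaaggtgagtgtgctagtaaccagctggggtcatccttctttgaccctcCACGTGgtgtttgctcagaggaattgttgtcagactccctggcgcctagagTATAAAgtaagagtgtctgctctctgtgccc
Apob (chr12:7977427-7977676, plus strand): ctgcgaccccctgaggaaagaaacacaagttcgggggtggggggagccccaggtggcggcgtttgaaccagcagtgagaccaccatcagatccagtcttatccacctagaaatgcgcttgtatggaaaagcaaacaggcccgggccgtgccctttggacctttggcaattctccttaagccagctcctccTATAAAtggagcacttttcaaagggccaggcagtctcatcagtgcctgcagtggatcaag
Lipc (chr9:70934809-70935058, minus strand): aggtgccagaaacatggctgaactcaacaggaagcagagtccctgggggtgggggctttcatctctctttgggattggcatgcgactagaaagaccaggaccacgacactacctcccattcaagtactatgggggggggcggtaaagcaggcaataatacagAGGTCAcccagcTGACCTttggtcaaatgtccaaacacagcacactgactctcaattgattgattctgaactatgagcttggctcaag

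Among these windows the TATA box was the only motif found in more than 1. Counted from the start site, Apoa5 had a TATA box at -31 to -26 and an E-box at -82 to -77, and Apob had a TATA box at -60 to -55. Lipc had nuclear receptor motifs at -88 to -83 on the gene's strand and at -76 to -71 on the opposite strand. The Apoa4 window held none of the 6 motifs, and neither did the Apoa1 and Mttp windows. Over the 32851 mouse promoters of the same length, 14.02% held the nuclear receptor motif, 12.4% the TATA box, 6.02% the E-box, 3.17% the forkhead motif, 1.55% the cyclic AMP response element and 0.384% the HNF4 motif. These matches describe the letters only.

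Levels of different genes were compared per kilobase of exon. Apoe, the receptor ligand of remnant particles, averaged 13276 CPM per kb over the 36 mice and ranked 2 among 19273 genes. Apoa1, the main HDL protein, averaged 9115 CPM per kb and ranked 4, and Apoa2, another HDL protein, averaged 8153 CPM per kb and ranked 7. The ranges of these genes over mice overlapped (10438 to 16675, 5792 to 14052 and 5479 to 12037 CPM per kb). Apoc3, which encodes an inhibitor of lipoprotein lipase and of remnant uptake, followed at 2029.9 CPM per kb and overlapped with no other gene except Apoa4 in single mice. Apoa5, whose protein promotes triglyceride hydrolysis by lipoprotein lipase, was at 542 CPM per kb, Apoa4 at 377 CPM per kb and Apob at 355 CPM per kb, again with overlapping ranges. Mttp (60.9 CPM per kb) and Lipc (56.7 CPM per kb) were lowest and overlapped with each other. Apoa4 spanned 26.2-fold over the 36 mice, against 1.60-fold for Apoe and 3.88-fold for Lipc.

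**Figure D1:**
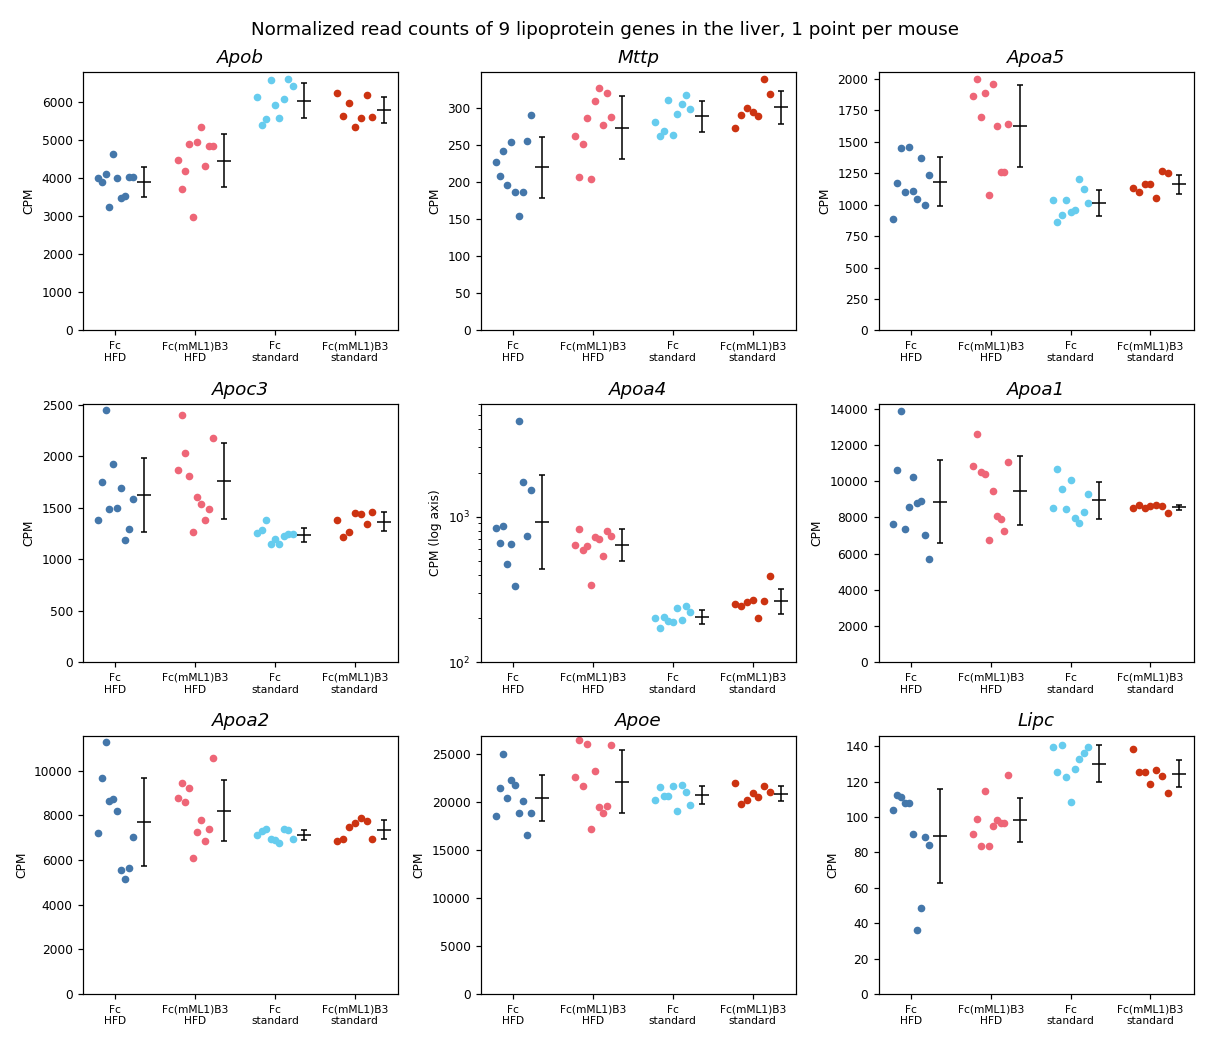
Normalized read counts (CPM, y axis) of the 9 genes, 1 point per mouse, in the 4 groups (x axis). Bars are mean ± SD, taken on log2 CPM for Apoa4, whose axis is logarithmic. Apob lies higher and Apoa4 lower in the standard diet groups, and 1 Fc mouse under HFD stands at 4541 CPM of Apoa4.

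The first comparison asks how these genes differed between Fc(mML1)B3 and Fc in mice recovering on HFD. Apoa5 and Mttp were higher with Fc(mML1)B3, and no member was called lower. Over all 13299 genes tested, 8.14% were called higher and 6.68% lower at an adjusted p below 0.05 (edgeR quasi-likelihood test), against 2 and 0 of the 9 genes. At an unadjusted p below 0.05 Apoa4 was lower as well, and DESeq2 made the same 2 calls. The median log2 fold change was 0.13 for the 9 genes and -0.0099 for all genes.

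Apoa5 was at 882 CPM in the lowest, 1139 in the median and 1459 in the highest Fc mouse. In Fc(mML1)B3 mice it was at 1080.1, 1670 and 1999 CPM. Of the 10 Fc(mML1)B3 mice, 9 lay above the Fc median and 7 above every Fc mouse, so the groups overlapped in the remaining 3. The log2 fold change was 0.48 ± 0.12 (SE; 1.39-fold, adjusted p = 0.0110). The libraries carry running numbers that fall into separate series, and the Fc(mML1)B3 libraries under HFD came in 2 of them. Those of mice 1 to 4 held 1694 to 1999 CPM, all above the Fc group, and those of mice 5 to 10 held 1080.1 to 1962 CPM. Against all Fc mice, mice 1 to 4 gave 0.69 (adjusted p = 0.00685) and mice 5 to 10 gave 0.32 (adjusted p = 0.141). All Fc libraries were of another series, so series and protein cannot be told apart here.

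Mttp was at 155, 218 and 291 CPM (lowest, median, highest) in Fc mice and at 205, 283 and 327 CPM in Fc(mML1)B3 mice. The Fc(mML1)B3 group was higher by 0.33 ± 0.11 (1.25-fold, adjusted p = 0.0436), with 8 of 10 mice above the Fc median and 3 above every Fc mouse. The call was at the edge of the threshold and was lost when any 1 of 12 of the 20 libraries was left out (adjusted p 0.0572 to 0.0848). Without Fc mice 7 and 8, described next, the difference was 0.25 (adjusted p = 0.125).

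Apob, the scaffold that Mttp protein serves, was at 3223, 3996 and 4619.8 CPM in Fc mice and at 2976, 4649.8 and 5337 CPM in Fc(mML1)B3 mice. Its difference of 0.21 ± 0.10 was not called (adjusted p = 0.168), but was in limma-voom (0.26, adjusted p = 0.0268). Apoc3, Apoa1, Apoa2, Apoe and Lipc differed by 0.10 to 0.15 on the log2 scale, none of them called. The 95% interval of the difference ran from -0.19 to 0.40 for Apoa1 and from -0.091 to 0.35 for Apoe.

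Apoa4 encodes an apolipoprotein whose hepatic transcription is known to rise with liver fat and which is linked to the export of large VLDL. It was at 333, 785 and 4541 CPM in Fc mice and at 341, 672 and 821 CPM in Fc(mML1)B3 mice, with 8 of 10 Fc(mML1)B3 mice below the Fc median. The log2 fold change of -0.90 ± 0.35 was not called (adjusted p = 0.0814), while a fit in which all 4 groups shared 1 estimate of the spread called it (-0.92, adjusted p = 0.0154). Fc mouse 7 held 4541 CPM and Fc mouse 8 held 1724 CPM, while in Lipc the same mice held the lowest values of all 36, at 36.3 and 48.8 CPM. These 2 libraries also held a summed level of neutrophil markers of 52.1 and 47.1 CPM. Among the other libraries, Fc mouse 5 under standard diet reached 53.1 CPM and none of the rest exceeded 13.3 CPM. Both neutrophil markers that could be tested (of 4 listed, 3 of them in the files) were called lower with Fc(mML1)B3 under HFD, and neither was called under standard diet. Apart from mice 7 and 8, the summed level under HFD was 3.86 to 11.3 CPM in Fc mice and 3.31 to 9.35 CPM in Fc(mML1)B3 mice. Without Fc mice 7 and 8 the Apoa4 difference was -0.20 (adjusted p = 0.574) and the Lipc difference -0.028, while Apoa5 stayed at 0.48 (adjusted p = 0.0165).

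Genes of the circadian clock differed between the protein groups in both experiments, in 12 of 14 tested under HFD (5 higher, 7 lower) and in 11 of 15 under standard diet (7 higher, 4 lower). Under HFD, Arntl averaged 1.20 CPM with Fc and 18.6 CPM with Fc(mML1)B3, Dbp 100.2 and 9.88 CPM, and Nr1d1 83.4 and 10.4 CPM. Many liver genes follow the time of day, and the labels give no hour of dissection. A clock score, log2 CPM of Arntl minus that of Dbp, was -7.52 to -5.08 in Fc mice and -1.90 to 3.09 in Fc(mML1)B3 mice under HFD, without overlap. With this score in the HFD fit, edgeR called 0 of 13299 genes (1060 at an unadjusted p below 0.05), DESeq2 2 and limma-voom 55, Apoa5 came to 0.70 (adjusted p = 0.618) and Mttp turned to -0.27 (adjusted p = 0.811). The protein and the clock score cannot be told apart under HFD.

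**Figure D2:**
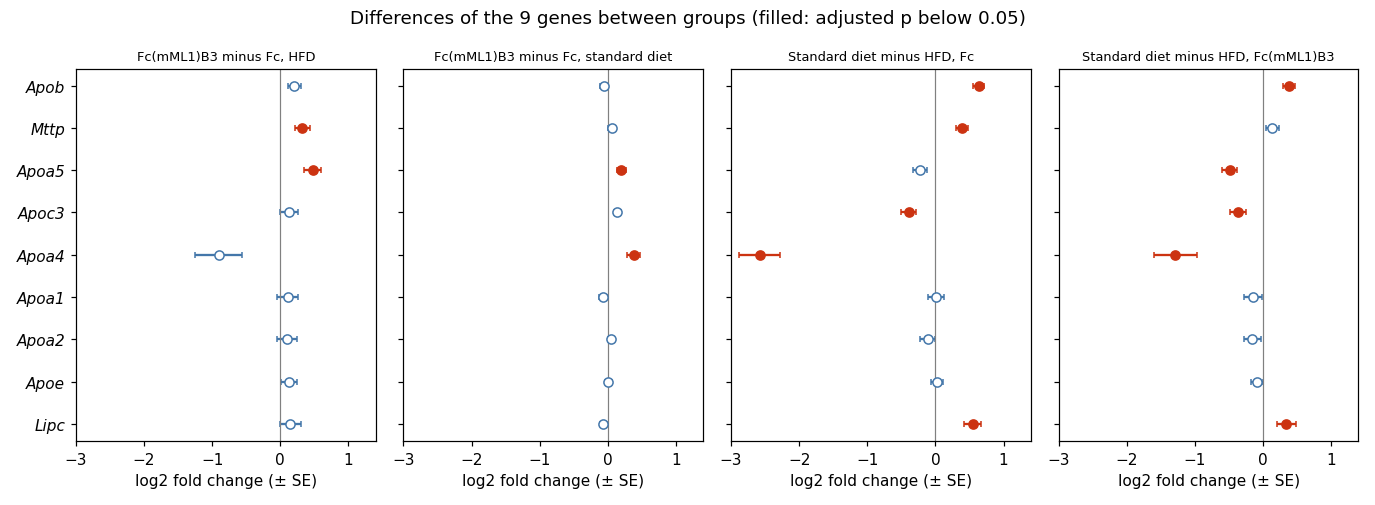
Log2 fold changes (x axis, ± SE) of the 9 genes (y axis) in 4 comparisons, filled where the adjusted p was below 0.05. Apoa5 is filled in both comparisons of Fc(mML1)B3 with Fc, while Apob and Lipc are filled and to the right, and Apoa4 filled and to the left, in both diet comparisons.

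The second comparison puts the same question in mice returned to standard diet. Here Apoa4 and Apoa5 were higher with Fc(mML1)B3 and no member was lower (none at an unadjusted p below 0.05, and none by DESeq2), against 8.56% of all 13570 tested genes called higher and 7.55% lower. The median log2 fold change was 0.045 for the 9 genes and -0.011 for all genes.

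Apoa4 was at 173, 202 and 244 CPM (lowest, median, highest) with Fc and at 201, 258 and 390 CPM with Fc(mML1)B3. Of the 7 Fc(mML1)B3 mice, 6 lay above every Fc mouse, the closest by 244.28 against 244.17 CPM, and mouse 5 lay below the Fc median. The log2 fold change was 0.38 ± 0.10 (1.30-fold, adjusted p = 0.0139), and 0.26 (adjusted p = 0.0235) without Fc(mML1)B3 mouse 7, which held 390 CPM. Apoa5 was at 865, 1017 and 1207 CPM with Fc and at 1052, 1164 and 1267 CPM with Fc(mML1)B3, where all 7 mice lay above the Fc median and 2 above every Fc mouse. It was higher by 0.20 ± 0.063 (1.15-fold, adjusted p = 0.0386).

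Fc mice 1 to 5 belonged to another number series than the remaining Fc mice and all Fc(mML1)B3 mice. Apoa4 was at 173 to 204 CPM in those 5 Fc mice and at 194 to 244 CPM in the other 4, and Apoa5 at 865 to 1037 and 958 to 1207 CPM. Within the shared series the differences were 0.26 for Apoa4 (adjusted p = 0.264) and 0.11 for Apoa5 (adjusted p = 0.406), with 4 Fc mice left, and neither was called. The fit with 1 estimate of the spread for all 4 groups called neither (adjusted p = 0.562 and 0.339). Apoa5 also lost its call when any 1 of 10 of the 16 libraries was left out (adjusted p 0.0574 to 0.0905). The clock scores overlapped under standard diet (-5.29 to -2.47 with Fc and -6.59 to -3.99 with Fc(mML1)B3). With the score in the fit Apoa4 stayed called (0.44, adjusted p = 0.0192), Apoa5 lost its call (0.19, adjusted p = 0.123) and Apoc3 gained one (0.20, adjusted p = 0.0295).

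Apoc3, the neighbour of Apoa4, was at 1148, 1243 and 1383 CPM with Fc and at 1219, 1383 and 1459 CPM with Fc(mML1)B3. Its difference of 0.14 ± 0.051 was not called in edgeR (adjusted p = 0.0684) and was called in DESeq2 (adjusted p = 0.0291). Apob and Mttp, the genes of particle assembly, differed by -0.061 ± 0.057 and 0.054 ± 0.053, with intervals from -0.17 to 0.051 and from -0.049 to 0.16. Apoa1 lay between 8244 and 8689 CPM in the 7 Fc(mML1)B3 mice, an SD of 154 CPM, against 7693 to 10694 CPM and an SD of 1019 CPM in Fc mice. Apoa1, Apoa2, Apoe and Lipc differed by -0.069 to 0.045 and none was called. No member separated the Fc and Fc(mML1)B3 mice without overlap in either experiment, as 0.91% of tested genes did under HFD and 2.93% under standard diet.

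The difference between the Fc(mML1)B3 effects of both experiments was tested as an interaction, which called 9.06% of all 14105 genes. Of the 9 genes, Apoa4 alone was called. Its effect was higher under standard diet by 1.30 ± 0.41 on the log2 scale (adjusted p = 0.0414). The call was lost when any 1 of 22 of the 36 libraries was left out (adjusted p 0.0503 to 0.0827). Without Fc mouse 7 under HFD the difference of effects was 0.79 (adjusted p = 0.0768), and without Fc mice 7 and 8 it was 0.58 (adjusted p = 0.167). For Apoa5 the difference of effects was -0.26 ± 0.15 (adjusted p = 0.315), for Mttp -0.25 ± 0.13 (adjusted p = 0.275) and for Apob -0.25 ± 0.12 (adjusted p = 0.208). None of these 3 was called in edgeR, while limma-voom called Mttp (-0.32, adjusted p = 0.0388) and Apob (-0.31, adjusted p = 0.0189) and did not call Apoa4 (adjusted p = 0.175).

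The largest differences among the 9 genes lay between the diet experiments. In Fc mice, Apob, Mttp and Lipc were higher and Apoa4 and Apoc3 lower under standard diet than under HFD, against 23.3% of all tested genes called higher and 24.6% lower. In Fc(mML1)B3 mice, Apob and Lipc were higher and Apoa4, Apoa5 and Apoc3 lower, against 20.7% and 17.9%. The comparisons have no mice in common but were estimated in 1 fit. With so many genes called in general, the 5 of 9 members called in each comparison are no more than a description.

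Apob was at 5374, 6062 and 6599 CPM (lowest, median, highest) in Fc mice under standard diet, and every one of the 9 lay above the highest of the 10 Fc mice under HFD (4619.8 CPM). The log2 fold change was 0.63 ± 0.081 (1.55-fold, adjusted p = 6.1e-08). In Fc(mML1)B3 mice it was 0.38 ± 0.086 (1.30-fold, adjusted p = 5.8e-04), and the groups touched, with 5337 CPM at the top of one and 5339 CPM at the bottom of the other. Neither Apob call held once a trend on transcript length, described below, was removed (0.18, adjusted p = 0.0797, and 0.019, adjusted p = 0.891). Mttp was at 263, 293 and 319 CPM in Fc mice under standard diet, higher by 0.39 ± 0.091 than under HFD (adjusted p = 5.5e-04). In Fc(mML1)B3 mice (274, 295 and 340 CPM under standard diet) the difference was 0.14 ± 0.097 and was not called (adjusted p = 0.267).

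Apoa4 was lower by 2.58 ± 0.30 on the log2 scale in Fc mice under standard diet (an inverse fold of 5.99, adjusted p = 1.1e-08), and its 9 values of 173 to 244 CPM all lay under the lowest HFD value of 333 CPM. Without Fc mice 7 and 8 under HFD it was still lower, with a log2 fold change of -1.87 (adjusted p = 4.1e-10). In Fc(mML1)B3 mice the log2 fold change was -1.29 ± 0.32 (adjusted p = 0.00137), and 6 of 7 mice lay under every HFD mouse. Of the genes listed as gut markers, Fabp2 was also called lower under standard diet with both proteins (-0.55, adjusted p = 1.6e-04, and -0.52, adjusted p = 9.6e-04). The other genes of that list were low or absent, as given above, and a part of gut RNA in the Apoa4 difference was not tested. The Apoa4 and Apob groups of Fc mice thus did not overlap, as did not 9.42% of all tested genes, and Apob was the only member without overlap in Fc(mML1)B3 mice, against 9.9% of genes.

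Lipc, hepatic lipase, which trims remnant particles and HDL, was at 36.3, 97.3 and 112 CPM (lowest, median, highest) in Fc mice under HFD and ranged from 108 to 140.8 CPM under standard diet, with a mean of 130.2 CPM. It was higher by 0.54 ± 0.13 (1.46-fold, adjusted p = 6.1e-04), and by 0.38 (adjusted p = 8.8e-05) without Fc mice 7 and 8. In Fc(mML1)B3 mice it went from 83.6, 96.6 and 124 CPM to 114, 126 and 138 CPM, a difference of 0.34 ± 0.14 (adjusted p = 0.0422). This call was lost in DESeq2 (0.32, adjusted p = 0.0523), with DESeq2 size factors, with upper quartile normalization (0.26, adjusted p = 0.115), with no count filter, and without any 1 of 14 of the 17 libraries, and kept in a fit of these 2 groups alone (0.32, adjusted p = 0.00192). Apoc3 was lower under standard diet by a similar amount with both proteins, with log2 fold changes of -0.39 ± 0.11 (adjusted p = 0.00261) and -0.36 ± 0.11 (adjusted p = 0.0110). Neither Apoc3 call held once the trend on transcript length was removed (-0.11, adjusted p = 0.237, and -0.15, adjusted p = 0.163). Apoa5 was lower in Fc(mML1)B3 mice, with a log2 fold change of -0.49 ± 0.11 (adjusted p = 4.9e-04), while in Fc mice the value was -0.22 ± 0.10 (adjusted p = 0.0630) and was called with upper quartile normalization (-0.31, adjusted p = 0.00771) and in limma-voom (-0.20, adjusted p = 0.0468). Apoa1, Apoa2 and Apoe lay between -0.16 and 0.022 in both comparisons and were not called.

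The difference between the diet experiments went with the length of the transcript over the whole table. In Fc mice the median log2 fold change was -0.29 for genes with under 1 kb of exon, -0.19 at 1 to 2 kb, -0.045 at 2 to 4 kb, 0.16 at 4 to 8 kb and 0.35 at 8 kb or more. A score of this trend per library, the median log2 CPM of genes of 8 kb or more minus that of genes under 1 kb, was -0.19 to 0.64 in the 20 HFD mice and 0.62 to 1.10 in the 16 mice on standard diet. Apob has 13.9 kb of exon, Mttp 4.41 kb and Apoc3 0.746 kb, and each lay on the side of its length class. The Apob value of 0.63 stands beside a class median of 0.35 and exceeded 82.3% of that class, the Mttp value of 0.39 beside 0.16 (75.0% of its class below) and the Apoc3 value of -0.39 beside -0.29 (35.8% below). Lipc (1.92 kb, 0.54) and Apoa4 (1.67 kb, -2.58) lay far from their class median of -0.19, with 95.5% and 0.031% of the class below them.

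A fit in which each library's trend on exonic length was removed, added after the trend was seen, called 21.9% of genes higher and 19.9% lower in Fc mice and 17.8% and 17.1% in Fc(mML1)B3 mice. In it Apoa4 stayed lower (-2.41, adjusted p = 5.3e-08, and -1.19, adjusted p = 0.00303) and Lipc higher (0.66, adjusted p = 1.1e-04, and 0.42, adjusted p = 0.0169). Mttp stayed higher in Fc mice (0.28, adjusted p = 0.00916) and Apoa5 lower in Fc(mML1)B3 mice (-0.44, adjusted p = 0.00200). Apob was no longer called, at 0.18 (adjusted p = 0.0797) in Fc mice and 0.019 (adjusted p = 0.891) in Fc(mML1)B3 mice, and nor was Apoc3, at -0.11 and -0.15. Apoa1 (0.26, adjusted p = 0.0308) and Apoe (0.19, adjusted p = 0.0327) were called higher in Fc mice in this fit only. A smaller trend of the opposite sign ran through the comparison of the proteins under standard diet, with medians of 0.058 under 1 kb and -0.096 at 8 kb or more, where 4.47% of genes were called higher and 15.5% lower. Once it was removed Apoa4 stayed called there (0.35, adjusted p = 0.0269) and Apoa5 did not (0.19, adjusted p = 0.0540). RNA quality values are not among the labels, and the part of RNA quality or library preparation in these trends was not tested.

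**Figure D3:**
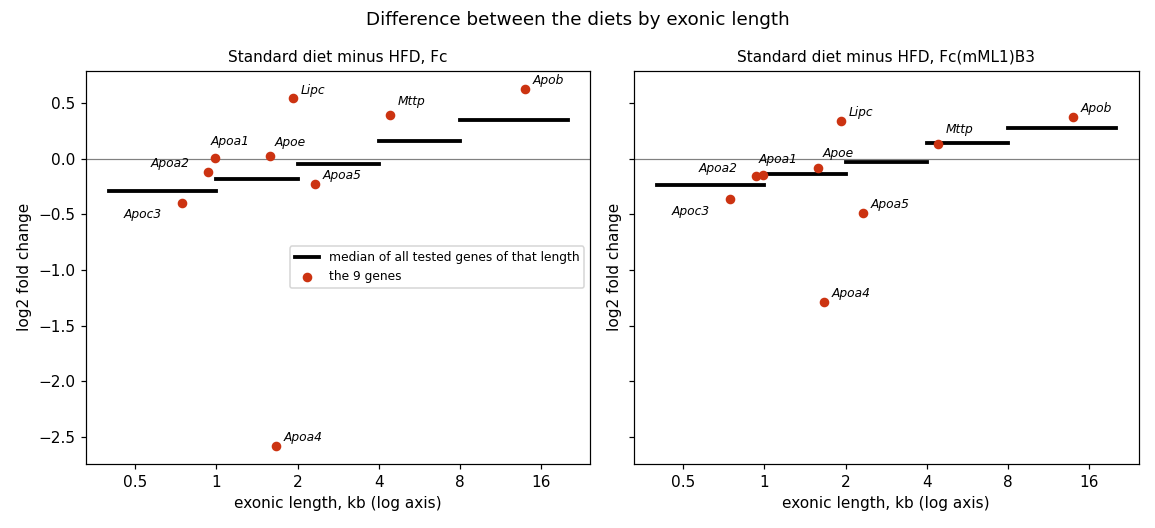
Log2 fold change between the diet experiments (y axis) against exonic length (x axis, log scale) for the 9 genes (points), with the median of all tested genes in 5 length classes (black bars; the outer classes are open-ended). The bars rise from -0.29 to 0.35 in Fc mice and from -0.24 to 0.28 in Fc(mML1)B3 mice, and Apob lies above the bar of the longest genes.

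The counts in the gene lists that follow stand beside 8.14% of all genes called higher and 6.68% lower with Fc(mML1)B3 under HFD, 8.56% and 7.55% under standard diet, and 23.3% and 24.6% between the diets in Fc mice (21.9% and 19.9% with the length trend removed). With the length trend removed, 1454 of 13294 genes were called higher and 981 lower with Fc(mML1)B3 under HFD. Under standard diet these were 1167 and 884 of 13566 genes. The counts in the lists are descriptions, and the lists were chosen with earlier results known. For these genes too, the protein and the clock score cannot be told apart under HFD. With that score in the HFD fit edgeR called 0 of 13299 genes.

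Of 18 further genes of VLDL assembly and secretion, 2 were called higher and 1 lower with Fc(mML1)B3 under HFD, and 6 higher and 1 lower under standard diet. With the length trend removed these were 5 and 1 under HFD and 5 and 1 under standard diet. Ces1d, a lipid droplet lipase that feeds stored triglyceride into VLDL, rose in both (0.96 ± 0.16, adjusted p = 2.3e-04, and 0.80 ± 0.10, adjusted p = 2.5e-05). Its mean went from 628 to 1214 CPM under HFD and from 572 to 1000.3 CPM under standard diet. Ces1g, a related carboxylesterase, rose by 0.41 ± 0.14 under HFD (adjusted p = 0.0475). Dgat2, which makes triglyceride, rose by 0.53 ± 0.052 under standard diet (adjusted p = 1.3e-06). Against these, Lpcat3, which adds polyunsaturated chains to membrane phospholipid, fell under HFD (-0.39 ± 0.085, adjusted p = 0.00323), and Pla2g12b, needed for the lipidation of nascent VLDL, fell under standard diet (-0.43 ± 0.071, adjusted p = 3.5e-04).

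In Fc mice, 4 of the 18 were higher and 2 lower under standard diet than under HFD, and 7 and 1 with the length trend removed. A1cf, a partner of the enzyme that edits Apob RNA, was higher by 1.92 ± 0.17 (26.04 to 99.0 CPM on average, adjusted p = 1.6e-11), while the difference of Apobec1, that enzyme, was not called. Mia2 and Mia3, which load large cargo into secretory vesicles, were higher by 1.67 ± 0.21 and 0.83 ± 0.065 (adjusted p = 3.8e-08 and 1.3e-12). With the length trend removed these 3 genes stood at 1.87, 1.81 and 0.56 and were still called.

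Phosphatidylcholine is made from choline through Chka, Pcyt1a and Cept1, or by methylation through Pemt. Of the 7 genes of this supply, 1 was higher and 1 lower with Fc(mML1)B3 under HFD, and 2 higher and 1 lower under standard diet. Chka, choline kinase, rose under HFD by 1.70 ± 0.18 (24.5 to 78.8 CPM on average, adjusted p = 9.6e-07) and fell under standard diet by 0.61 on the log2 scale (36.9 to 24.2 CPM, adjusted p = 0.00656). This difference of effects was itself called (-2.29, adjusted p = 3.2e-08), and the part of the clock score in it was not tested. Pcyt1b fell under HFD (-0.88 ± 0.24, adjusted p = 0.0172). Pcyt1a and Pemt rose under standard diet (0.33 ± 0.056, adjusted p = 4.1e-04, and 0.16 ± 0.042, adjusted p = 0.0136), of which Pemt lost its call with the length trend removed (0.12, adjusted p = 0.0598). In Fc mice Cept1 and Chka were higher under standard diet than under HFD and Pemt was lower (0.40, 0.59 and -0.35). With the length trend removed 2 of the 7 were higher and 3 lower, these 3 genes still among them (0.42, 0.64 and -0.15).

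**Figure D4:**
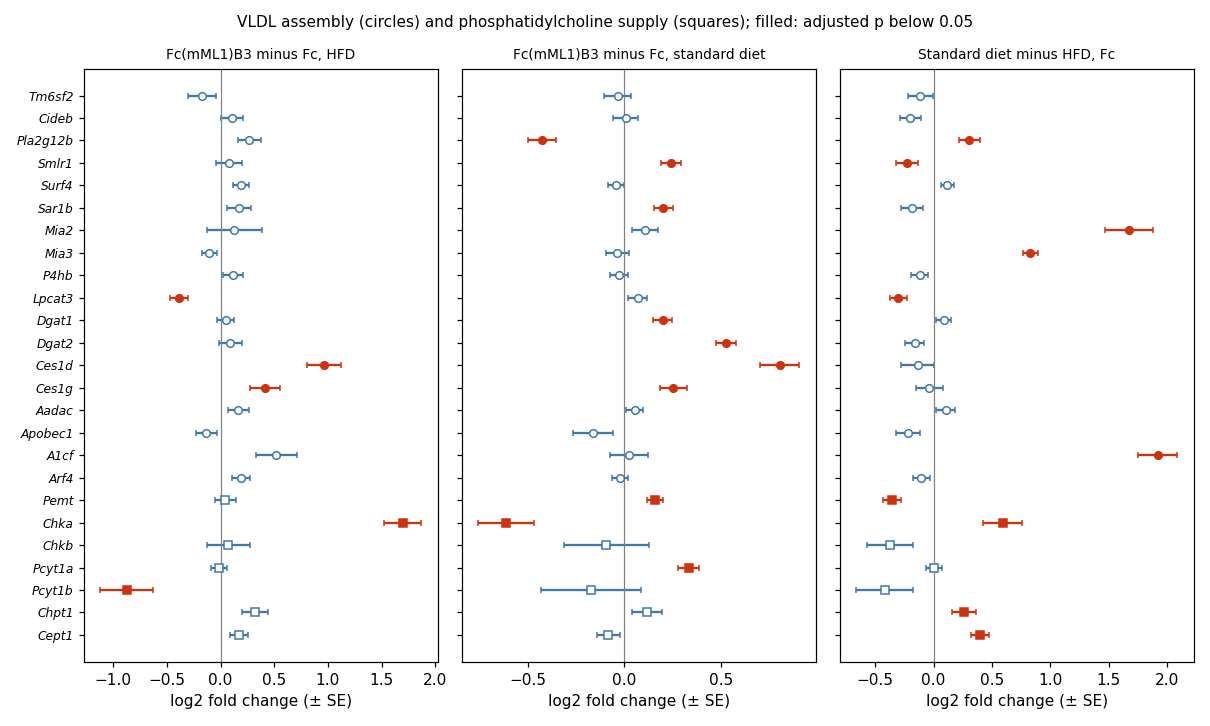
Log2 fold changes (x axis, ± SE, a separate scale in each panel) of 18 genes of VLDL assembly (circles) and 7 of phosphatidylcholine supply (squares) in 3 comparisons, filled where the adjusted p was below 0.05. Ces1d is filled and to the right in both comparisons of the proteins, Chka changes side between them, and A1cf and Mia2 stand farthest right between the diets.

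Of 9 other apolipoproteins that could be tested, only Saa4, an HDL apolipoprotein, was called with Fc(mML1)B3 (0.63 ± 0.14 under HFD, adjusted p = 0.00256). Clu alone was lower under standard diet than under HFD in Fc mice (-0.28 ± 0.080, adjusted p = 0.00416). Clu was not called with the length trend removed (-0.15, adjusted p = 0.101), and 5 of the 9 were then higher. Among 11 genes of HDL formation and lipolysis, 1 was lower under HFD, and 1 was higher and 2 lower under standard diet. Pltp, the phospholipid transfer protein, fell under HFD (-0.41 ± 0.090, adjusted p = 0.00311). Under standard diet Lpl, lipoprotein lipase, fell (-0.76 ± 0.090, adjusted p = 1.1e-05), Scarb1, the HDL receptor, fell (-0.21 ± 0.066, adjusted p = 0.0318), and Lipg, endothelial lipase, rose (0.94 ± 0.21, adjusted p = 0.00519). Between the diets in Fc mice 3 of the 11 were higher and 3 lower, with Abca1, which lipidates ApoA-I, and Furin higher (0.92 ± 0.078 and 0.26 ± 0.085) and Pltp lower (-0.74 ± 0.085). With the length trend removed 1 was higher, Abca1 (0.55), and 2 were lower, Pltp among them (-0.60), and Furin was not called (0.15, adjusted p = 0.138).

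Of 12 genes of lipoprotein uptake, 1 was lower with Fc(mML1)B3 under HFD, and 3 were higher and 1 lower under standard diet. Sort1, a sorting receptor that binds ApoB in the secretory pathway, was the one called lower in both experiments (-0.42 ± 0.14, adjusted p = 0.0476, and -0.31 ± 0.094, adjusted p = 0.0279), though under standard diet the call was lost with the length trend removed (-0.25, adjusted p = 0.0713). Lsr, a receptor of triglyceride-rich particles, rose under standard diet (0.20 ± 0.059, adjusted p = 0.0272). In Fc mice Sort1 and Lrp1 were higher under standard diet than under HFD (0.60 ± 0.13 and 0.43 ± 0.068). Of the 12, 4 were higher and 3 lower, and 3 and 5 with the length trend removed, where Lrp1 was no longer called (-0.022, adjusted p = 0.823).

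Of 23 known regulators of apolipoprotein genes, 3 were higher and 2 lower with Fc(mML1)B3 under HFD, and 4 higher and 1 lower under standard diet. Hnf4a, a nuclear receptor of hepatocytes, rose under HFD (0.37 ± 0.11, adjusted p = 0.0208), and Ppargc1b, a coactivator, fell (-0.77 ± 0.20, adjusted p = 0.0113). Under standard diet Nr1h4, the bile acid receptor, Esrra and Foxo1 rose by 0.57 ± 0.056, 0.63 ± 0.071 and 0.53 ± 0.070. Between the diets in Fc mice 10 were higher and 5 lower, led by Prox1 (1.65 ± 0.17), Mlxipl (0.77 ± 0.092) and Nr5a2 (0.79 ± 0.12). With the length trend removed 8 were higher and 6 lower, and these 3 stood at 1.56, 0.72 and 0.74 and were still called.

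Some markers of other liver cells differed between the diet experiments. In Fc mice, 5 of 10 macrophage, 4 of 6 stellate cell, 2 of 5 cholangiocyte and 5 of 5 lymphocyte markers were called lower under standard diet than under HFD, against 24.6% of all genes, and 2 of 7 hepatocyte and 1 of 5 endothelial markers higher, against 23.3%. Among the same markers in Fc(mML1)B3 mice, 4 macrophage, 3 stellate cell, 2 cholangiocyte and 1 lymphocyte markers were lower, against 17.9% of all genes. In these mice 1 hepatocyte, 1 endothelial and 1 lymphocyte marker were higher, against 20.7%. After removal of the length trend, 5 macrophage, 5 stellate cell, 1 cholangiocyte, 4 lymphocyte and 1 endothelial markers were lower and 5 hepatocyte markers higher in Fc mice. The summed macrophage level was 694 to 1691 CPM in Fc mice under HFD and 509 to 885 CPM under standard diet, and the summed stellate level 205 to 400 and 171 to 259 CPM. Between the proteins under standard diet, 1 macrophage, 2 stellate cell, 1 cholangiocyte and 1 hepatocyte marker were called lower with Fc(mML1)B3 and 2 hepatocyte markers higher, against 7.55% and 8.56% of all genes. These were 2, 2, 0 and 1 lower and 1 higher after removal of the length trend. Under HFD, beside the neutrophil markers, 1 of the 5 lymphocyte markers was lower. The part of cell composition in the differences of the 9 genes was not tested.

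After subtraction of the group means, Apoa1, Apoa2, Apoc3 and Apoe varied together from mouse to mouse, most closely under HFD. Their 6 pairs had an r of 0.54 to 0.79 in Fc and 0.87 to 0.95 in Fc(mML1)B3 mice under HFD, against 0.064 to 0.76 and -0.29 to 0.53 under standard diet. Of 36 pairs of genes, 10 had a Pearson r above 0.5 over the 36 mice and 8 had an r below 0, with a median of 0.28. The highest were Apoa2 with Apoc3 (r = 0.79, rho = 0.71), Apoa1 with Apoe (0.78, rho = 0.68), Apoc3 with Apoe (0.77) and Apoa2 with Apoe (0.75). These points share library size, normalization and the length trend, and the length score correlated with Apoc3 (r = -0.79), Apoa1 (-0.71), Apoe (-0.70) and Apoa2 (-0.64) in the same mice. The 4 genes of the chromosome 9 cluster were not uniform, since Apoa4 stood at r = -0.037 with Apoa1 and 0.11 with Apoc3.

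Apob and Mttp, scaffold and lipid loader, formed a separate pair (r = 0.75, rho = 0.79, and 0.73 without the 2 mice farthest from the median). Within groups r was 0.67 and 0.93 in Fc and Fc(mML1)B3 mice under HFD, and 0.78 and 0.12 under standard diet. Apoa4 and Lipc ran opposite (r = -0.67), but rho was -0.33, r was -0.43 without the 2 farthest mice, and it was -0.83 in Fc mice and 0.50 in Fc(mML1)B3 mice under HFD, so the relation rested on few mice. All values are descriptions of these 36 libraries.

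**Figure D5:**
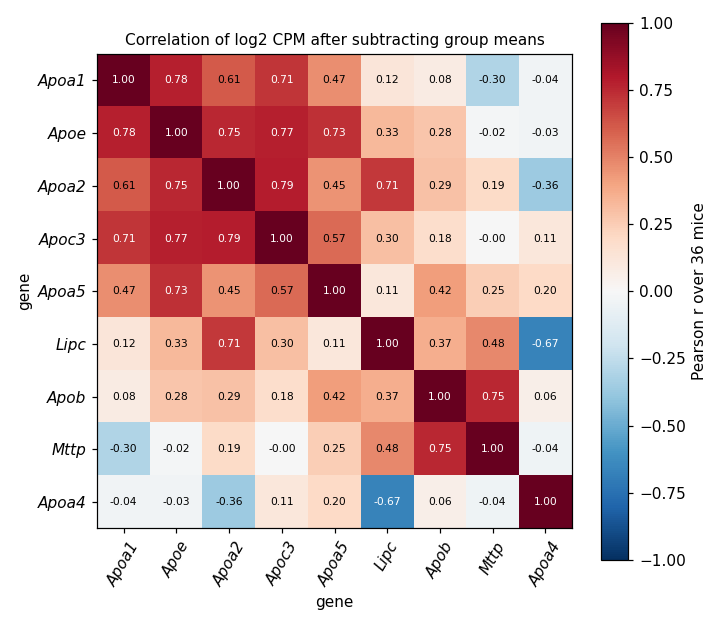
Pearson r between the 9 genes (both axes) of log2 CPM after subtracting group means, over 36 mice, with red for positive and blue for negative values. Apoa1, Apoe, Apoa2 and Apoc3 form a block of 0.61 to 0.79, Apob and Mttp a pair at 0.75, and Apoa4 with Lipc stands at -0.67.

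The genes most like each member across the 36 mice, by the same measure, included several secreted liver proteins. Apoa1 was closest to Serpina1a (r = 0.89), Apom (0.86) and Serpina1e (0.85), though the Serpina1 genes are near-identical copies whose reads are hard to separate. Apoe was closest to Apoh (0.90), Serpina1c (0.89) and Mrps7 (0.89). Apoa2 was closest to Dbi (0.91), Sod1 (0.90) and Fxyd1 (0.90), and Apoc3 to Ndufb10 (0.94), Ttc36 (0.93) and Cox6b1 (0.93). These values share the length trend as well, with the length score at r = -0.79 with Apoc3 and -0.64 with Apoa2. The lowest r within a group was 0.28 for Apoa2 with Dbi and 0.45 for Apoc3 with Ttc36. It was 0.13 for Apoa1 with Serpina1a and 0.12 for Apoe with Mrps7. Mttp was closest to the peroxisome-related genes Tmem135 (0.89) and Abcd3 (0.88) and to Lactb2 (0.88), and Apob to Gm4788 (0.89), Chuk (0.86) and F9 (0.86). Lipc was closest to Sult2a8 (0.92), Rgn (0.89) and Pon1 (0.88), Apoa4 to Cyp17a1 (0.89), Acmsd (0.81) and Cth (0.78), and Apoa5 to Dio1 (0.79), Naa60 (0.78) and Uqcrfs1 (0.78). For Lipc the rho with its 3 genes was lower, at 0.69, 0.57 and 0.56. The lowest r of Lipc within a group was 0.43 with Sult2a8, -0.40 with Rgn and -0.26 with Pon1, so the last 2 did not hold in every group. No other member was among the 3 closest genes of any member.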

How the data were processed

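Total RNA of mouse liver was sequenced with a directional kit on a DNBSEQ-G400. According to the labels and the study's methods, the authors trimmed reads with fastp, removed ribosomal RNA with Bowtie2 2.4.5, aligned to mm10 with STAR 2.7.10a and counted reads per gene with featureCounts (Subread 2.0.3) without a strand option, so the deposited values are raw counts with no normalization. Read ends were counted singly. Depth was 14949035 to 28466853 counts per library.

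Groups were taken from sample titles. Counts were tested in edgeR 4.0.16 (R 4.3.3) with TMM factors, filterByExpr, the quasi-likelihood test and Benjamini-Hochberg adjustment over all genes tested, called at an adjusted p below 0.05. The diet experiments were fitted separately for the protein effect, and all 4 groups together for the interaction and the diet contrasts. CPM values use TMM library sizes, and log2 CPM a prior count of 2. Alternatives used DESeq2 1.42.0 and limma 3.58.1, other normalizations and filters, a joint fit, a replicate block, a clock score, subsets by number series and each library left out. All 9 members are named. Of the pathway lists, at most 3 called genes with the smallest p are named per list and comparison, except some that are not reported here, and 3 most correlated genes per member. Members and lists were chosen with earlier results of these data known. The edgeR step was tested on simulated counts.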

Additional observations from a re-analysis of the deposited data

Results flagged for a closer look

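In each of the 36 combinations of member and group, the highest and lowest mouse was set against the others by Dixon's test, which by chance flags about 1 in 20. It found 3 values, in 2 mice. Apoa4 in Fc mouse 7 under HFD was at 4541.4 CPM, with the nearest mouse of its group at 1724.4 CPM. Apoa4 in Fc(mML1)B3 mouse 7 under standard diet was at 390.41 CPM, with the nearest at 268.13 CPM. Apoa1 in the same mouse was at 8243.9 CPM, below the nearest at 8503.8 CPM, in a group of unusually small spread.

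The effect of Fc(mML1)B3 on Apoa4 differed between the diet experiments by 1.2963 on the log2 scale in the test of the interaction (edgeR, adjusted p = 0.0414). Without Fc mouse 7 under HFD this was 0.79 (adjusted p = 0.0768), and without Fc(mML1)B3 mouse 7 under standard diet 1.17 (adjusted p = 0.0827). The same Fc mouse held the lowest Lipc (36.3 CPM) and Mttp (155 CPM) of all libraries and a neutrophil marker sum of 52.1 CPM, and the part of these in the difference was not tested.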

How the results depend on the processing

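Of 972 member fold changes with 1 library left out, 887 kept their direction and side of the threshold, 58 lost and 7 gained a call, and 20 uncalled values changed sign, to at most 0.073 in size. Of 495 under other settings, 425 kept both, 38 lost and 10 gained a call, 21 uncalled values changed sign, the largest being Apob under HFD with the clock score (-0.15), and 1 called value reversed, Mttp in the same fit (-0.27).

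Under HFD, 2 members were called in the fit reported above. This was 0 at an adjusted p below 0.1 with a fold above 2, with the clock score and with number series 3 only, and 1 with upper quartile normalization, with no count filter, with the replicate block, with series 2 only and without Fc mice 7 and 8, and 3 in the joint fit (Apoa4 lower) and with voom (Apob higher). Under standard diet the 2 became 0 by the fold rule, in the joint fit (Apoa4 adjusted p = 0.562) and with series 5 only, and 1 with the length trend removed (Apoa5 adjusted p = 0.0540), while the clock score exchanged Apoa5 for Apoc3. The interaction call became 2 with voom (Apob and Mttp, not Apoa4), and 0 with no count filter, with the block and without Fc mice 7 and 8. Between the diets the 5 calls in each comparison became 1 by the fold rule, and in Fc(mML1)B3 mice 3 with the length trend removed. Leaving out 1 library gave 1 to 3, 1 to 3, 0 to 1, 5 to 6 and 4 to 5 calls in these comparisons, in that order.

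The Mttp call under HFD was lost without any of Fc mice 1, 2, 4, 6, 7 and 8 or Fc(mML1)B3 mice 4 and 6 to 10. The Apoa5 call under standard diet was lost without any of Fc mice 1, 2, 3, 5, 6 and 9 or Fc(mML1)B3 mice 3, 4, 6 and 7. The Apoa4 interaction was lost without any of 22 of the 36 libraries (adjusted p 0.0503 to 0.0827), with the value moved over 1.5 times by Fc mouse 7 under HFD only. The Lipc call in Fc(mML1)B3 mice was lost without any of 14 of 17 libraries (adjusted p 0.0528 to 0.0918). Apoa4 under HFD was called without Fc mouse 6 (-1.01, adjusted p = 0.0453), and was -0.39 without Fc mouse 7. Apob was called without Fc(mML1)B3 mouse 5 under HFD (0.26, adjusted p = 0.0359, and -0.30 in the interaction).

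Replicate numbers shared between groups did not pair the mice. Mice of the same number had correlations of -0.62 to 0.26 under HFD and -0.16 to 0.00093 under standard diet. With the replicate block Mttp under HFD was 0.33 (adjusted p = 0.101) and the Apoa4 interaction 0.91 (adjusted p = 0.2001), and the numbers of genes called were 1294, 1302 and 794 against 1972, 2186 and 1278. Counts of genes called also moved by over 1.5 times by the fold rule (178, 82, 271, 702 and 564, against 6759 and 5434 for the diet comparisons), with voom (3039 under HFD and 2026 for the interaction), in the joint fit (3133 and 785), with the clock score (0) and with single number series (705 for series 2, 942 for series 5). The removal of Fc mice 7 and 8 and of the length trend was chosen after seeing the data. Counts of 581 reads or more for every member in every library make counting error small, and the spread between mice limits the precision.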

Other observations

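Of 8 genes beside the apolipoprotein clusters on chromosomes 9 and 7 that could be tested, 1 was called higher and 1 lower with Fc(mML1)B3 under standard diet, against 8.56% and 7.55% of all genes. Their median log2 fold change under HFD was 0.14, against -0.0099 for all genes. Tomm40 rose with Fc(mML1)B3 (0.49 ± 0.063, adjusted p = 2.6e-05, edgeR) and Relb fell (-0.49 ± 0.14, adjusted p = 0.0192). Between the diets in Fc mice, 2 were higher and 2 lower under standard diet, against 23.3% and 24.6% of all genes. Sik3 and Pafah1b2 were higher (0.41 ± 0.082 and 0.25 ± 0.050), and Relb (-0.62 ± 0.17) and Tomm40 (-0.30) lower. With the length trend removed Sik3 and Tomm40 were not called (adjusted p = 0.0836 and 0.126), and Bcl3 was called higher (0.48, adjusted p = 0.0146).

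The spread between mice of 1 group was smaller under standard diet. The SD of log2 CPM of Apoe was 0.17 and 0.22 in the Fc and Fc(mML1)B3 groups under HFD and 0.065 and 0.054 under standard diet, and that of Apoa2 0.37 and 0.24 against 0.049 and 0.084. The median over all tested genes was 0.25 and 0.26 under HFD and 0.18 and 0.16 under standard diet.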
